A study of Mus musculus with 4 samples.

Results

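The 6 genes described here, Lyz1, Laptm5, Ctss, Tyrobp, Cd14 and C1qb, are used as markers of microglia, other macrophages and their lysosomes. They were taken by gene symbol from the platform annotation. Each had 1 probe, which made 6 of the 6856 probes of the table, and all 6 had a value on all 4 arrays. The tissue was neocortex of C57BL/6 mice at embryonic day 16. Null mutants, described in the labels as synaptically silent, were set against normal embryos. Each of 4 two-colour arrays held total RNA of a separate null sample in one channel. The other channel held RNA of 4 pooled control replicates, which count as 1 control sample. The null RNA carried Cy3 on replicate 1 and Cy5 on replicates 2, 3 and 4. The null sample of replicate 1 is given as day 14 in its source name and as day 16 in its title and characteristics.

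The values were log2 ratios of both channels, and the channel in the numerator is not given in the sources used here. Signs are therefore as deposited, and a positive value is neither a higher nor a lower level in the null mutants. On replicates 2 to 4 dye and genotype cannot be told apart. If the numerator was the null RNA on every array, equal signs on replicate 1 and on replicates 2 to 4 stand for the same direction. If it was one fixed dye, equal signs stand for opposite directions. A ratio holds no level, so that neither the abundance of these RNAs nor the tissue label could be checked against markers. In bulk tissue, fewer cells of a type and less RNA per cell cannot be told apart.

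Microglia are the resident macrophages of the brain. They derive from the yolk sac, enter the embryonic neocortex before birth, and take up dying cells and parts of synapses, which they break down in lysosomes. Lyz1 encodes a secreted lysozyme that cuts bacterial cell walls and is known mainly from Paneth cells of the gut, Ctss the cysteine protease cathepsin S and Laptm5 a membrane protein of lysosomes in blood-derived cells. Tyrobp, also called DAP12, is a signalling adaptor that pairs with receptors such as TREM2. Cd14 is a co-receptor that hands lipopolysaccharide to TLR4, and C1qb encodes a chain of C1q, which starts the classical complement pathway.

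Sequences upstream of gene starts are shown for genes whose log ratios are set against each other here. Lyz1 and Lyz2 are neighbours on chromosome 10 with 0 annotated genes between them in the RefSeq table, and Ctss and C1qb had means of opposite sign. The sequences are from RefSeq on build GRCm38.p6 and run 5′ to 3′ on the strand of the gene, with 250 bases before the start for Lyz1, Lyz2 and C1qb and 30 bases around the start for Ctss. Capitals mark GGAAGT, the core that ETS factors such as PU.1 of macrophages bind, here read as its reverse complement ACTTCC.
Lyz1, chr10:117292869-117293118, minus strand: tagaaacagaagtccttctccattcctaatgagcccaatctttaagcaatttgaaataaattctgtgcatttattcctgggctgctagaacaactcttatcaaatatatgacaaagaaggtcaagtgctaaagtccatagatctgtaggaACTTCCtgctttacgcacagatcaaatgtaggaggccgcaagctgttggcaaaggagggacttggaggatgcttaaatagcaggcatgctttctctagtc
Lyz2, chr10:117282273-117282522, minus strand: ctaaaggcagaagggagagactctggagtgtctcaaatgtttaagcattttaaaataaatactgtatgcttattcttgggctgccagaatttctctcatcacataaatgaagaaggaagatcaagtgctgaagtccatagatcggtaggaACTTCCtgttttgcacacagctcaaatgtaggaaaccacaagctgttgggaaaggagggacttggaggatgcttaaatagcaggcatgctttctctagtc
Ctss, chr3:95526771-95526800, plus strand: gaaatgaaagttcACTTCCtcattgtggat
C1qb, chr4:136886201-136886450, minus strand: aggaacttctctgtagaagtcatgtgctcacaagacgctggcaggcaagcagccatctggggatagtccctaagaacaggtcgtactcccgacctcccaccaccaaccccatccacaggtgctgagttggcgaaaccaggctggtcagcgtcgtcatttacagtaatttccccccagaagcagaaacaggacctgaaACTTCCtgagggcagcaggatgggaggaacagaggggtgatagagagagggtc

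In a global alignment, the upstream windows of Lyz1 and Lyz2 shared 205 identical bases, or 82.0% of 250. Lyz1 and C1qb shared 58.4%, with 76 gapped positions, and Lyz2 and C1qb shared 56.8%. The share that unrelated windows reach in such an alignment was not measured. The capital letters of Lyz1 and Lyz2 begin at the same place, 100 bases before the start. In C1qb they begin 53 bases before it, and in Ctss the match spans the start. Promoter windows of 300 bases, 250 before to 50 after the start, were matched for 4 of the 6 genes, Lyz1, Laptm5, Ctss and C1qb. GGAAGT, searched on both strands, was present in 4 of these 4, against 23.8% of 32851 mouse windows. The longer AGGAAGT, which contains it, was present in 3 of 4, against 9.35%. CACGTG, the core of the E-box that lysosomal regulators of the TFEB family bind, was present in 0 of 4, against 7.15%. The first motif was chosen after these windows were seen, and the longer one extends it at the same sites. Their shares are therefore no fresh comparison, and a match is a description of letters.

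The 6 genes split into 4 with positive and 2 with negative means on replicates 2 to 4. These arrays were used when the genes were chosen, and their values are given without a test. Lyz1, Laptm5, Ctss and Tyrobp were positive on each of the 3 arrays, which held for 16.3% of 5720 probes. C1qb was negative on each, which held for 17.3%, and Cd14 had both signs. On replicate 1 a positive sign was found for 3 of the 6, against 50.2% of all probes. Earlier results of these data were known when the genes were chosen, so replicate 1 is no independent check. Of the 4 genes positive on replicates 2 to 4, 3 were also positive on replicate 1. Among all 927 probes positive on replicates 2 to 4 and measured on replicate 1, the share was 47.7%. C1qb was negative on replicate 1 as well, as were 44.7% of the probes negative on replicates 2 to 4. The 6 genes therefore did not form a block with a single sign on any array.

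**Figure D1:**
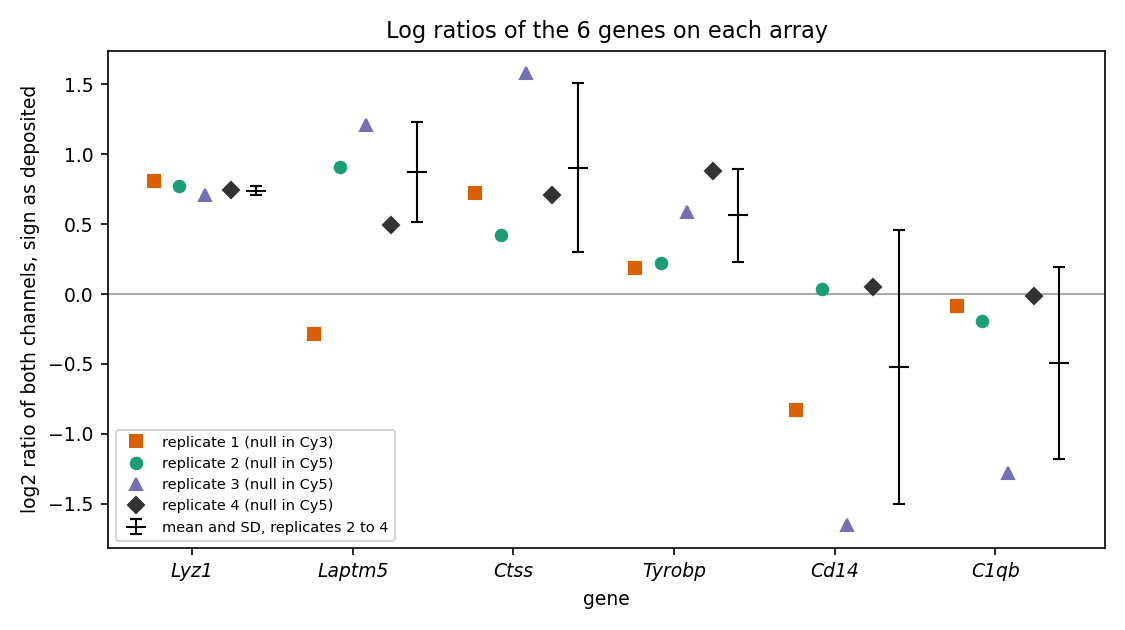
Log2 ratio, sign as deposited (vertical axis), of the 6 genes (horizontal axis) on each array, with the mean and SD of replicates 2 to 4 as a bar. Lyz1 lies between 0.71 and 0.81 on all arrays, whereas Cd14 and C1qb fall to -1.65 and -1.28 on replicate 3 and lie near 0 on replicate 4.

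Lyz1 had log2 ratios of 0.81, 0.77, 0.71 and 0.74 on replicates 1 to 4. Its mean on replicates 2 to 4 was 0.74 ± 0.03 (SD, n = 3), or 1.67-fold. As deposited, the 4 arrays had a range of 0.10. With replicate 1 turned to -0.81, as a ratio of one fixed dye to the other would require, the range was 1.58 and the mean of 4 arrays 0.35. The SD of Lyz1 on replicates 2 to 4 stood at percentile 1.08 of the SDs of all probes, whose median was 0.27. Lyz1 ranked 113th from the top on replicate 1, 106th on replicate 2 and 140th on replicate 4. On replicate 3, the array with the widest spread, its value of 0.71, the lowest of the 4, ranked 596th.

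Lyz2, the lysozyme of macrophages, had a probe of its own. It had 0.56, 0.63, 0.21 and 0.74 on replicates 1 to 4, with a mean of 0.53 ± 0.28 (SD, n = 3). As deposited, both lysozyme genes were positive on all 4 arrays, which 7.77% of probes were. With replicate 1 turned, both were negative there and positive on the other arrays. Of 5023 genes compared, 5 lay nearer to Lyz1 than Lyz2 did. The lysozyme genes are close copies, and the probe sequences were not used here, so that the probes may share transcripts and are not independent of each other.

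Laptm5 had log2 ratios of 0.91, 1.21 and 0.50 on replicates 2 to 4, but -0.29 on replicate 1. Its mean was 0.87 ± 0.36 (SD, n = 3), or 1.83-fold. Laptm5 was thus the only one of the 4 positive genes with the opposite sign on replicate 1, where it stood at percentile 23.5 of the array, against percentiles 93.5 to 98.8 on the others. Laptm4a, a relative of broader tissue range, had 0.44, 0.17, 0.09 and 0.28 on replicates 1 to 4 and a mean of 0.18 ± 0.10 (SD, n = 3). Its order of arrays differed from that of Laptm5, with the highest value on replicate 1 and the lowest on replicate 3.

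Ctss had log2 ratios of 0.72, 0.42, 1.58 and 0.71 on replicates 1 to 4. Its mean was 0.90 ± 0.60 (SD, n = 3), or 1.87-fold. All 4 values were positive, and replicate 3 exceeded the other arrays by more than those differed among themselves. Without replicate 3 the mean was 0.57, against 0.76 for Lyz1 and 0.70 for Laptm5.

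The table held 15 other genes with a cathepsin symbol, of which 13 were measured on replicates 2 to 4, with 6 means above 0 and 7 below. Their means ran from -0.41 for Ctsd, the main aspartic protease of lysosomes, to 0.80 for Ctsh, an aminopeptidase. Ctsh had -0.01, 1.12, 1.18 and 0.10 on replicates 1 to 4. Ctsd had 0.40, -0.40, 0.84 and -1.68, so that its arrays disagreed in sign. Ctsl, cathepsin L, was positive on all 4 arrays with 0.21, 0.43, 0.29 and 0.46. Ctsz had 0.04 ± 0.34 and Ctsk, the collagen-cutting cathepsin of osteoclasts, had 0.08 ± 0.51 (SD, n = 3). The cathepsins therefore did not share one sign, and limma gave none of them an adjusted p under 0.05 (Ctsh 0.473, Ctsl 0.484).

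Tyrobp had log2 ratios of 0.19, 0.22, 0.59 and 0.88 on replicates 1 to 4. Its mean was 0.56 ± 0.33 (SD, n = 3), or 1.48-fold. All 4 arrays were positive, and the 2 lowest values came from arrays of opposite dye orientation. Its place among all probes went from percentile 70.9 on replicate 1 to 98.7 on replicate 4. Trem2, the microglial receptor that signals through TYROBP, had a value on replicates 1 and 4 only, with -0.04 and 0.96.

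Cd14 had log2 ratios of -0.83, 0.04, -1.65 and 0.05 on replicates 1 to 4. Its mean was -0.52 ± 0.98 (SD, n = 3), with an SD larger than the mean. The negative mean rested on replicate 3, and without it the mean was 0.05. The 2 arrays with clearly negative values had opposite dye orientation. Cd14 stood at percentiles 4.21 and 1.16 on replicates 1 and 3, and at 58.3 and 57.1 on replicates 2 and 4.

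Of the partners of CD14, both Tlr4, the gene of the receptor itself, and Myd88 had the same order of signs as Cd14, and Tlr2 did not. These signs rest in part on values near 0, with Cd14 at 0.04 and 0.05 on replicates 2 and 4 and Tlr4 at 0.01 on replicate 4. The share of all probes with this order of signs was not counted. On replicate 3 Myd88 had -0.10, whereas Cd14 had -1.65. Tlr4 had -0.62, 0.22, -0.57 and 0.01 on replicates 1 to 4. Tlr2, which recognises lipoproteins with help from CD14, had 0.28, 0.26, -0.30 and 0.08. Myd88, the adaptor downstream of both receptors, had -0.27, 0.20, -0.10 and 0.74. All 3 had means within their SD of 0 on replicates 2 to 4, at -0.11 ± 0.41, 0.01 ± 0.29 and 0.28 ± 0.43 (SD, n = 3). Ly96, which encodes the TLR4 partner MD-2, had no value on any array.

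C1qb had log2 ratios of -0.08, -0.19, -1.28 and -0.01 on replicates 1 to 4. Its mean was -0.49 ± 0.69 (SD, n = 3). All 4 signs were negative, as for 7.74% of probes, but only replicate 3 was far from 0, and the mean without it was -0.10. C1qa and C1qc, which encode the other chains of the same C1q protein and follow C1qb on chromosome 4 in the order C1qb, C1qc, C1qa, had other values. C1qa had -0.04, 0.38, 0.26 and 0.28 on replicates 1 to 4, with a mean of 0.31 ± 0.06. C1qc had -0.15, -0.06, -0.14 and 0.35, with a mean of 0.05 ± 0.26 (SD, n = 3). On replicate 3 the 3 chains thus stood at -1.28, 0.26 and -0.14. On replicate 4 they were closer, at -0.01, 0.28 and 0.35.

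**Figure D2:**
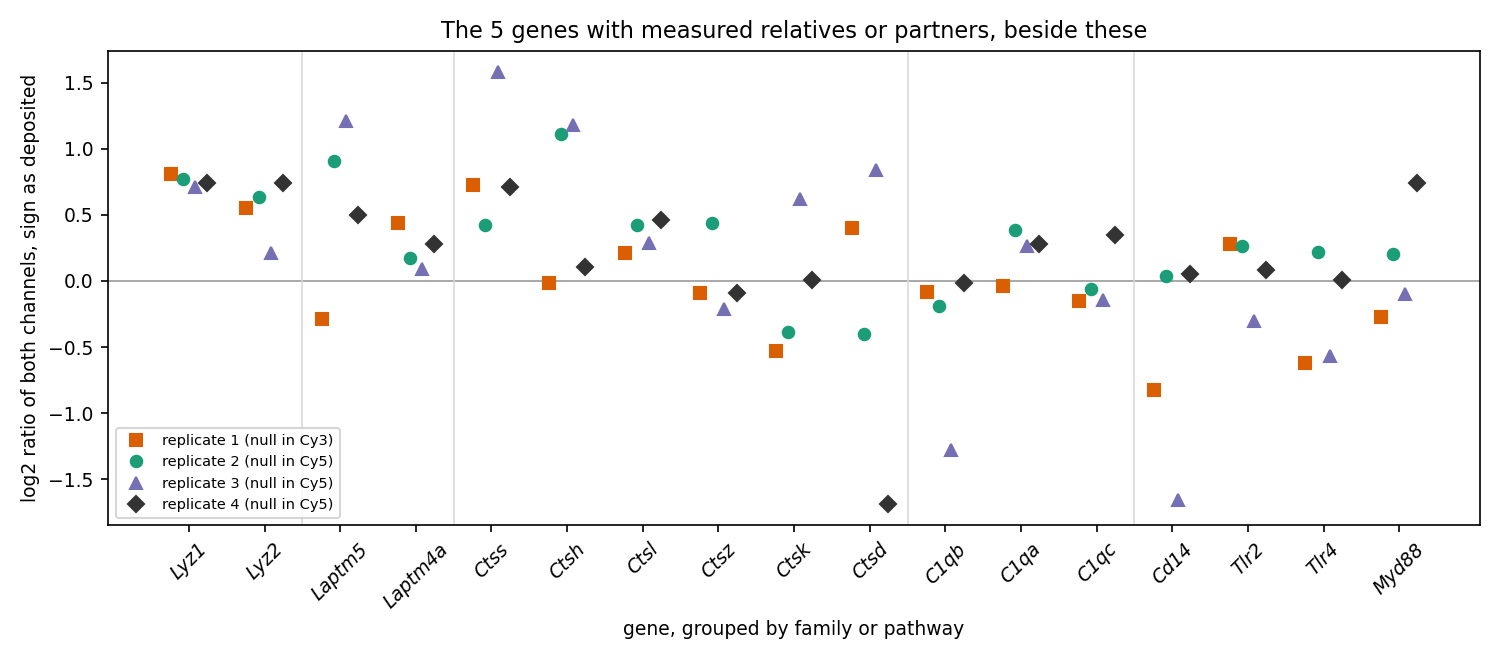
Log2 ratio, sign as deposited (vertical axis), on each array for 5 of the genes beside relatives and partners (horizontal axis, grouped by lysozymes, LAPTM proteins, cathepsins, C1q chains and the CD14 pathway). Lyz1 and Lyz2 are positive on all arrays, while C1qb lies at -1.28 on replicate 3 and C1qa at 0.26.

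Replicate 3 had the widest log ratios, with an SD over probes of 0.63 against 0.40 to 0.48 on the other arrays, and 7.82% of its probes were beyond 1 in size, against 1.70% to 3.97%. The largest values in size of Laptm5, Ctss, Cd14 and C1qb were all on replicate 3. The part of replicate 3 in these values was not tested.

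**Figure D3:**
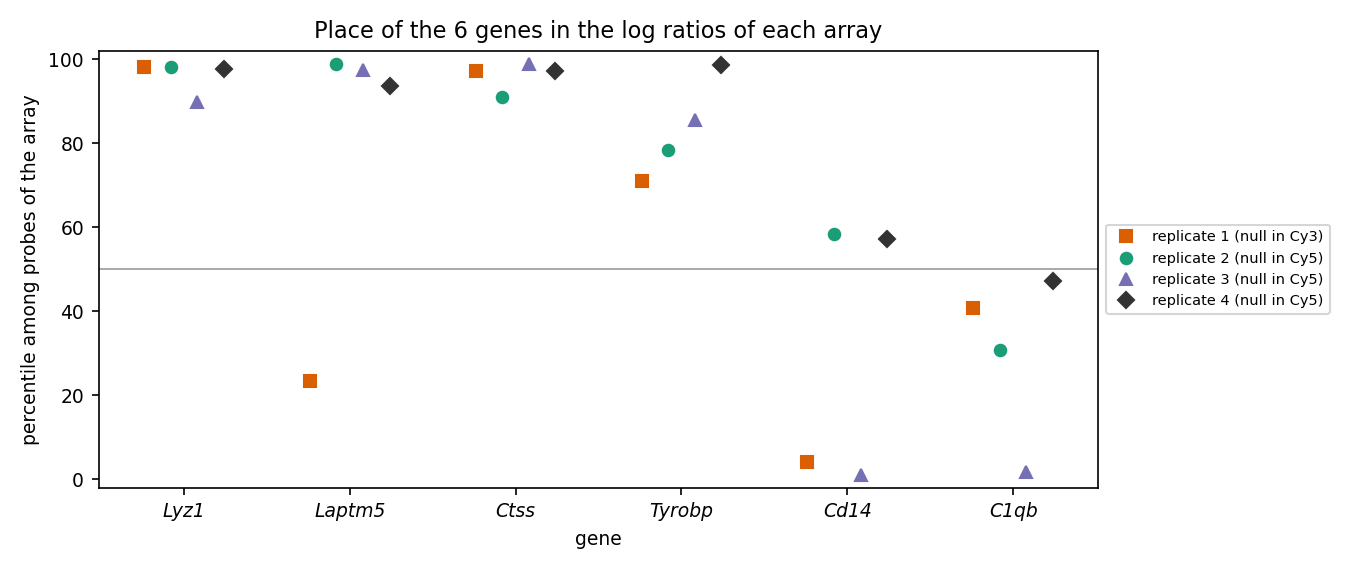
Percentile of each of the 6 genes among all probes of an array (vertical axis, 0 to 100, higher meaning a more positive log ratio) for each array. Ctss lies above percentile 90 on all 4 arrays, Lyz1 between 89.7 and 98.2, and Laptm5 at 23.5 on replicate 1 only.

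Likeness was measured as the Euclidean distance between the values of 2 genes on the 4 arrays as deposited, over 5023 other genes. Lyz1, Ctss, Tyrobp and Laptm5 lay between 0.85 and 1.24 of each other, and Cd14 and C1qb lay 0.86 apart. Between these 4 and these 2 genes the distances were 2.13 to 3.67. The 4 and the 2 differ in the sign of their means on replicates 2 to 4, which enter the distance. Wider distances between them follow in part from that split. None of the 6 was the nearest gene of another. For Cd14, 32 genes were nearer than C1qb, whereas for C1qb, 481 genes were nearer than Cd14. For Lyz1, 63 were nearer than Tyrobp, and for Tyrobp, 471 were nearer than Lyz1, 1558 nearer than Laptm5 and 1810 nearer than Ctss. Many other genes were thus as near to a member as the other members were.

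Nearest to Lyz1 was B2m, the light chain of MHC class I molecules, at a distance of 0.22, with 0.93, 0.60, 0.67 and 0.67 on replicates 1 to 4. The kinase genes Mast4 and Clk4 followed at 0.35 and 0.51. Nearest to Tyrobp were Arhgap5, a GTPase-activating protein gene, at 0.13, the thyrotropin receptor gene Tshr at 0.18 and Spock3, a proteoglycan gene, at 0.21. C1qb had Car11, a carbonic anhydrase-related protein, at 0.14, Pml, the scaffold of nuclear bodies, at 0.15 and Rnf25, a ubiquitin ligase, at 0.16.

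Laptm5 was nearest to the agouti gene (symbol a) at 0.35, the netrin receptor gene Unc5c at 0.37 and Spata6 at 0.38. Nearest to Cd14 were the matrix genes Ecm1 at 0.41 and Lama4 at 0.42 and the kinase gene Pim1 at 0.42. Ctss had the most distant neighbours, the transcriptional inhibitor Id2 at 0.57, the oviduct glycoprotein gene Ovgp1 at 0.61 and Atp5md, a subunit of the ATP synthase, at 0.68. With 4 arrays, such distances rest on few values, and none of these 18 genes was in the lists of microglial or lysosomal genes.

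Other genes of these cells and pathways were examined in 10 lists, tested on replicates 2 to 4 with limma and adjusted over all 5720 probes. In the lists together, 0 of 198 probes passed in either direction, and 0.0% of all probes did. At an unadjusted p under 0.05 limma listed 15 of these 198 probes as positive and 14 as negative, against 5.61% and 4.06% of all probes. These tests rest on 3 arrays and a single control pool, and they leave out the spread between controls.

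The list of microglia and macrophage markers had 15 of 32 probes with a positive mean and a median of -0.01, close to 47.4% and -0.02 over all probes. The wider list thus did not lean to positive values. Cx3cr1, the fractalkine receptor of microglia, had 0.59 on replicate 2, 2.01 on replicate 3 and -0.26 on replicate 4, and no value on replicate 1. Itgam, the integrin chain CD11b, had -0.28, -0.46, 0.24 and -0.44 on replicates 1 to 4. Aif1, which encodes IBA1, had -0.13, 0.03, 0.30 and 0.01. These 3 defining markers thus had no common sign, and Aif1 stayed within 0.30 of 0 on every array. The further genes with the smallest p were Sall1, a transcription factor of microglia and of neural progenitors, at -0.62 ± 0.44, and Gpr34, a lysophospholipid receptor of microglia, at 1.43 ± 1.34 (SD, n = 3), each with an adjusted p of 0.473 from limma. On replicate 1 they had -0.05 and 1.61.

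Many markers of these cells had no value at all. Of 46 probes in the microglia and macrophage list, 13 had no value on any array, or 28.3%, against 14.3% of all probes. Among them were Ptprc, the leukocyte antigen CD45, Spi1, which encodes PU.1, the endosomal glycoprotein gene Cd68, the integrin gene Itgb2 and Adgre1, an adhesion receptor gene of macrophages. The share was 37.5% for the list of TYROBP and immune kinase signalling and 31.8% for complement. For the lists of other cells it was 26.7% for meninges, 25.8% for other leukocytes and platelets, 18.2% for red blood cells and 11.1% for vessels. It was lower for lysosomal hydrolases and their inhibitors, at 2 of 40 probes. Many of these enzymes are expressed in most cells, but the part of expression in the missing values was not tested. What an empty value stands for is not given in the sources used here.

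The lysosomal lists had no common sign either. Lysosomal hydrolases and cathepsin inhibitors had 17 of 38 probes positive and a median of -0.06, and lysosomal membrane proteins with the proton pump had 15 of 28 positive and a median of 0.03. Lamp1 and Lamp2, the most abundant lysosomal membrane proteins, had 0.15 ± 0.41 and 0.22 ± 0.20 (SD, n = 3). Ppt1, a thioesterase that removes fatty acids from proteins, had 0.07 on replicate 1 and 0.57, 0.53 and 0.59 on replicates 2 to 4. Dnase2a, the lysosomal DNase, had 0.81 ± 0.64, Npc1, a cholesterol transporter, had 0.48 ± 0.16, and Tcirg1, a subunit of the proton pump, had -0.71 ± 0.54. On replicate 1 these 3 had -0.68, -0.12 and -0.55. The adjusted p from limma was 0.454 for Ppt1 and 0.473 for the other 3.

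Complement genes had 9 of 15 probes positive with a median of 0.05. Cd46, a regulator of complement, had 0.97 ± 0.66 on replicates 2 to 4 and -1.70 on replicate 1, and Serping1, the C1 inhibitor, had -0.50 ± 0.14 (SD, n = 3) and 0.06 on replicate 1. Genes of the CD14 and Toll-like receptor pathway had 10 of 17 positive and a median of 0.02. Traf6 and Map3k7, which carry the signal to NF-kB, had 0.54 ± 0.20 and 0.52 ± 0.25, with -1.52 and -0.0030 on replicate 1. Genes of TYROBP and immune tyrosine kinase signalling had 8 of 13 positive and a median of 0.06. Pik3cd, a kinase of leukocytes, had -0.33 ± 0.25, and Clec5a, a receptor that pairs with TYROBP, had -1.19 ± 1.69, with -0.27 and 0.14 on replicate 1. None of these genes passed limma, with adjusted p-values of 0.457 to 0.559.

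Markers of other cells that a piece of neocortex can hold were read on the same arrays. The list of other leukocytes and platelets had 12 of 21 probes positive and a median of 0.03, with medians of -0.13 to 0.18 on single arrays. Epx, the eosinophil peroxidase, had -0.98 ± 0.77 and Ncr1, a receptor of natural killer cells, had -0.38 ± 0.51 (SD, n = 3), with -1.34 and -0.11 on replicate 1. Red blood cell genes had 5 of 9 positive and a median of 0.0029, with the embryonic globin Hba-x at -0.74 ± 0.17, but 0.37 on replicate 1, and the factor Tal1 at 0.73 ± 0.27, but -4.06 on replicate 1. Vessel genes had 5 of 16 positive and a median of -0.17, and meningeal genes 3 of 11 positive and a median of -0.14. The vessel median was negative on every array, from -0.35 to -0.17. Sox17 and Sox18, factors of endothelial cells, had -1.41 ± 0.86 and -0.48 ± 0.14, with 0.26 and 0.21 on replicate 1. Ptgds and Foxc1, expressed in the meninges, had -1.36 ± 0.62 and -0.38 ± 0.12, with -1.86 and 0.57 on replicate 1. None passed limma, with adjusted p-values of 0.450 to 0.614. The part of these cell types in the values of the 6 genes was not tested.

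**Figure D4:**
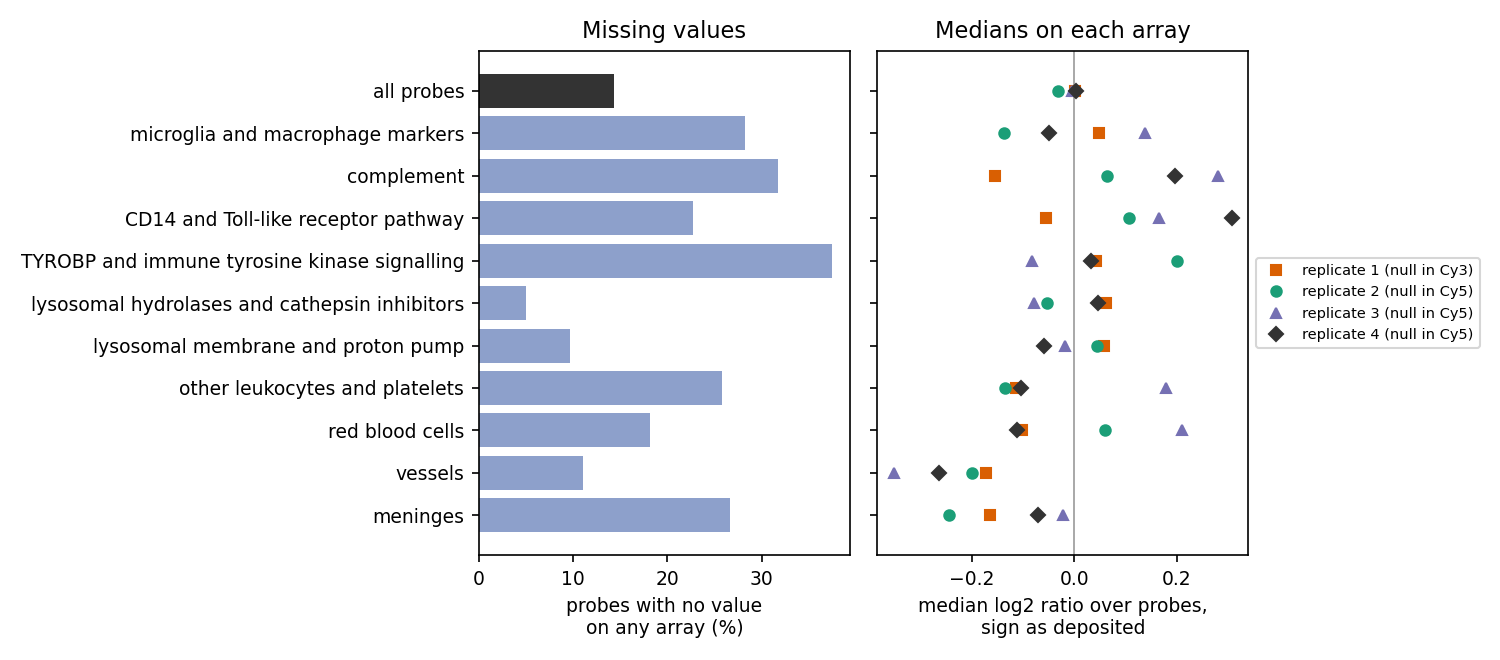
For all probes and 10 gene lists (rows), the left panel shows the share of probes without a value on any array in percent, and the right panel the median log2 ratio on each array with the sign as deposited. The microglia and macrophage list has 28.3% without a value, against 14.3% of all probes, and its medians lie between -0.14 and 0.14.

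The partner genes of the 6, a set of 33 picked for their roles, had a probe for 25, of which 17 were measured on replicates 2 to 4. Of these, 14 had a positive and 3 a negative mean, against 47.4% positive among all probes. On each of the 3 arrays 7 were positive and 0 negative, against 16.3% and 17.3%. They include Lyz2, Ctsh, Ctsl and C1qa, and none passed limma. With replicate 1 added as deposited 11 of 16 had a positive mean, and with it turned 13 of 16. Every partner gene with a probe is also in the lists above, in which 98 of 198 probes had a positive mean. The partner set was chosen with earlier results of these arrays known, so its share of positive means is no independent check.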

How the data were processed

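The deposited values were log ratios processed by the authors, read here as log2, with 1 column per array, and 0 further columns were left unused. No source used here states the log base, numerator, background correction or normalization. Base 2 was assumed, because values lay too far from 0 for log10, and the natural logarithm was not excluded. Fold sizes rest on that base. Column medians were -0.03 to 0.0044. Intensities were not used, so signal over background is unknown, and the number of arrays limits the precision. Between 5777 and 5873 probes had a value on an array.

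Probes were named from the platform annotation. It held a single symbol for 6269 of the 6856 probes, more than 1 for 6, and no symbol for the remaining 581. All 6 Entrez IDs were found in the RefSeq table of GRCm38.p6. Means were taken over replicates 2 to 4. Other genes were tested against 0, two-sided, on 5720 probes in limma 3.58.1 (lmFit, eBayes; R version 4.3.3), with Benjamini-Hochberg adjustment and a threshold of 0.05. The fit was tested on simulated data with 200 shifted probes among 5720. It recovered 51.4% of 2-fold and 95.7% of 4-fold shifts, and 4.37% of its calls were false. A gene that did not pass can therefore still differ. Windows were aligned with Biopython 1.88.

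The members and lists were chosen with earlier results of these data known. Besides the 6 genes, the text names 33 partner genes where measured, up to 2 further genes per list with the smallest p, and the 3 nearest genes of each of the 6. Ptprc, Spi1, Cd68, Itgb2 and Adgre1 are partner genes without values. The mutated gene is not reported here. Alternatives were the sign of replicate 1, centring, scaling, leaving out an array, averaging probes by gene, missing values, a robust prior, array weights and a threshold of 0.1.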

Additional observations from a re-analysis of the deposited data

Results flagged for a closer look

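Of 60 named genes with a value on all 4 arrays, 6 had 1 array that stood apart from the other arrays. Chance flags about 1 in 20 genes that were not chosen on their values, and many of these 60 were. The array was replicate 3 for 4 of them and replicate 1 for the other 2. C1qb had -1.28 on replicate 3 and -0.19 to -0.01 on the others. Pml, one of its nearest genes, had -1.16 on replicate 3 and -0.20 to -0.10 on the others. Ncr1 had -0.97 on replicate 3 and -0.12 to -0.06 on the others, and Ovgp1, near Ctss, had 1.71 on replicate 3 and 0.21 to 0.38 on the others. Ppt1 had 0.0671 on replicate 1 and 0.53 to 0.59 on the others. Tal1 had -4.06 on replicate 1 and 0.53 to 1.04 on the others. The values are as deposited, and replicate 1 is the array with null RNA in Cy3. Genes chosen for likeness to C1qb or Ctss share their pattern by that choice. Ppt1 and Tal1 were chosen by a small p on replicates 2 to 4, which favours close values there. The rate of 1 in 20 is therefore no measure for this count.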

How the results depend on the processing

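No paired analysis was possible because each array held 1 null sample and the same control pool. The mean of Lyz1 moved from 0.74 to 0.35 with replicate 1 turned, and to 0.77 on a common scale, each by more than its SD of 0.03. The means of the other 5 genes moved by less than their SD under the alternatives run on them. When 1 of 3 arrays is left out, a mean cannot move by as much as the SD, so that part was fixed in advance. The SD is also a wide mark for a gene such as Cd14, at 0.98, and a narrow one for Lyz1. Leaving out 1 array gave 0.73 to 0.76 for Lyz1, 0.70 to 1.06 for Laptm5, 0.57 to 1.15 for Ctss, 0.40 to 0.73 for Tyrobp, -0.81 to 0.05 for Cd14 and -0.74 to -0.10 for C1qb. Only Cd14 changed sign, without replicate 3. Then 5 of the 6 genes had a positive mean and otherwise 4, an alternative chosen after seeing the data.

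Of all probes, 0 passed the adjusted threshold in limma, 2 with 4 arrays and replicate 1 as deposited, 1 with a robust prior, 3 with array weights and 1 at a threshold of 0.1. None of these was a probe of a listed gene. The number at an unadjusted p under 0.05 was 553, and 1067 with array weights. Leaving out 1 array gave 236 to 621, the lowest without replicate 2. The number of listed genes past the threshold was 0 under every alternative run. With 3 arrays of one dye orientation and a single pool, neither dye nor the spread between controls could be measured.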
